A study of Mus musculus with 6 samples.

Results

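The 7 genes described here encode the cyclin-dependent kinase (CDK) inhibitors of the CIP/KIP family (Cdkn1a, Cdkn1b and Cdkn1c) and of the INK4 family (Cdkn2a, Cdkn2b, Cdkn2c and Cdkn2d). They were chosen by family membership and not by their measured values, although earlier results of these data were known. They come out of 18193 genes with a probe set of their own, and they are covered by 9 of the 45037 probe sets tested. The study compared bone marrow stromal cells (BMSC) that had been recovered from mouse brain after a stroke with cells of the line that was injected. Both groups are BMSC of H-2Kb-tsA58 mice (CBA/ca × C57Bl/10 hybrids), which express SV40 large T antigen in a temperature-sensitive form under the H-2Kb promoter, and both were grown at 33 °C, where that antigen is active. The 3 iLarge T arrays (replicates 2, 4 and 6) hold RNA from cells that were injected intravenously into male C57Bl/6J mice of 6 to 8 weeks. The injection came 24 h after reperfusion that ended a 60 min occlusion of the middle cerebral artery, and the cells were cultured out of the infarcted hemisphere 14 days later. The 3 naïve arrays (replicates 1, 3 and 5) hold RNA from the same Large T BMSC without injection into an animal. Each array was hybridized with RNA pooled from 3 hemispheres or from 3 sets of naïve cells, so that an array averages several animals or cultures, and the iLarge T cells are those that grew out at the permissive temperature. Stay in the brain, selection by growth and the second culture therefore cannot be told apart in any difference between the groups.

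CDK inhibitors act as brakes on the cell cycle. INK4 proteins bind CDK4 and CDK6 and keep them from pairing with D-type cyclins, whereas CIP/KIP proteins bind complexes of cyclins with CDKs and block above all those with CDK2. When these kinases are held back, the retinoblastoma (RB) family of pocket proteins stays unphosphorylated and restrains the E2F factors, which drive the genes of DNA replication. SV40 large T antigen binds both the RB family and p53, the factor that is best known for switching on Cdkn1a, and cells that express it can cycle in spite of high INK4 levels. The signals below are transcript levels, and much of the control of these inhibitors, that of Cdkn1b above all, works on the protein.

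Of the 7 inhibitors, Cdkn1a was higher in iLarge T BMSC, Cdkn1b, Cdkn2c and Cdkn2d were lower, and Cdkn1c, Cdkn2a and Cdkn2b did not pass the test. A gene was called where limma gave an adjusted p under 0.05 over all 45037 probe sets and the groups differed by at least 2-fold, and its value is that of its probe set with the brightest mean. By this rule 6.80% of all genes were called, 3.54% as higher and 3.26% as lower, and among the 11400 genes at or above the median signal 10.2% were called. The 4 called members were also those whose arrays did not overlap between the groups, which held for 27.6% of all genes (14.5% as higher and 13.1% as lower). The median log2 fold change of the 7 members was −0.96, beside 0.06 over all genes. The calls rest on the sharing of spread over probe sets of like signal. Without that intensity trend limma called 0 of the 7 after adjustment, and so did both forms of the methods' t-test (of log2 values or of linear signals), although 4 of the 7 had an unadjusted p under 0.05 in each of these tests. Both forms called far fewer genes over the whole array than the paper reports by its stated test. The cause of that gap was not tested. By probe set in the main test, 3 of the 9 were called lower, 1 was called higher, and 2.47% of all probe sets were called higher and 2.27% lower.

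**Figure D1:**
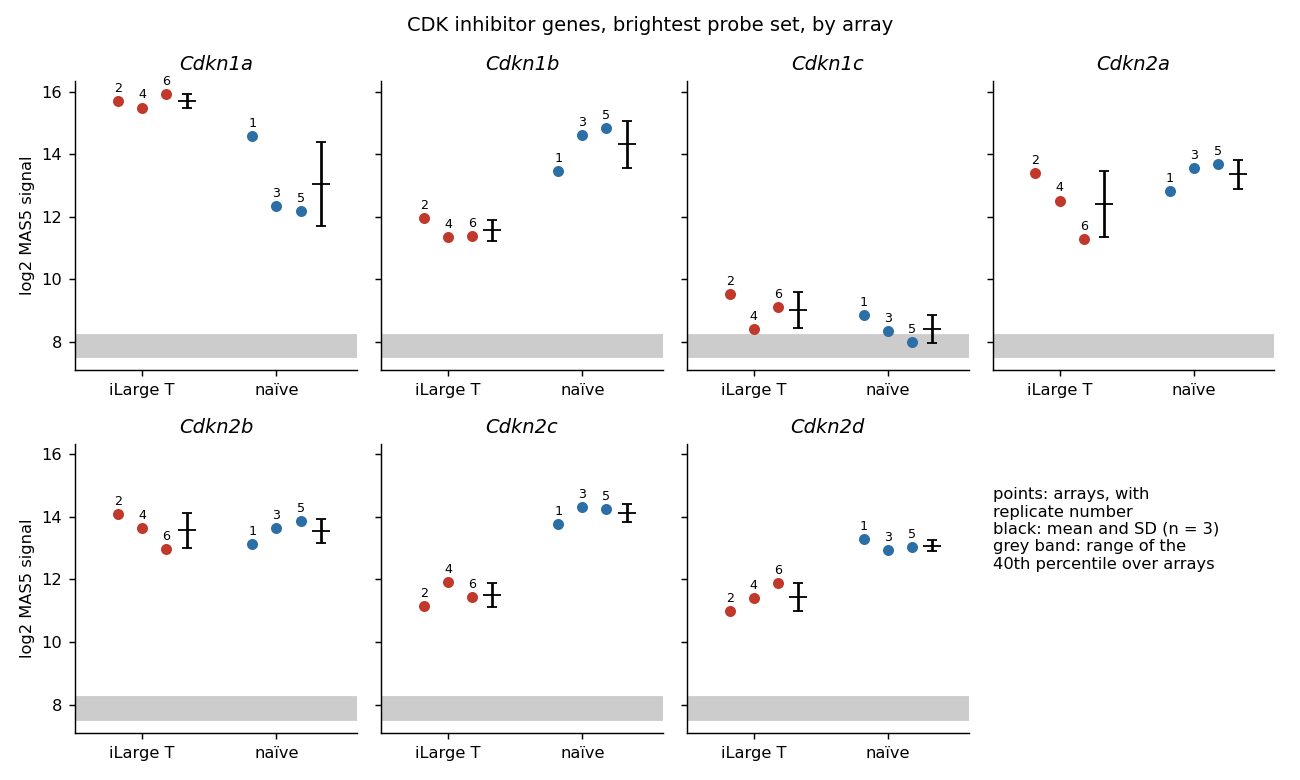
Log2 MAS5 signal of the 7 CDK inhibitor genes on each array (points, with the replicate number), iLarge T left and naïve right in each panel, with the mean and SD of the 3 arrays in black and the range of the arrays' 40th percentiles as a grey band. Cdkn1a stands higher on all 3 iLarge T arrays, Cdkn1b, Cdkn2c and Cdkn2d stand lower on all 3, and the other 3 genes overlap.

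Cdkn1a encodes p21, the inhibitor that p53 induces when DNA is damaged. It lies on mouse chr17:29090979-29100722 (GRCm38.p6) and has 2 probe sets. The signal of the brighter one was 53342, 46041 and 61865 on the iLarge T arrays, against 24622, 5220 and 4614 on the naïve arrays. The iLarge T arrays were close together, while naïve replicate 1 stood between them and the other naïve arrays. The means were 53749 ± 7920 in iLarge T BMSC and 11485 ± 11381 in naïve BMSC (SD, n = 3 each), and limma gave a log2 fold change of 2.67 (SE 0.54, 95% interval 1.45 to 3.88, adjusted p = 0.0228). This is 6.35-fold higher, with an interval of 2.73 to 14.8. On naïve replicate 1 the signal was 2.33 log2 units above the mean of naïve replicates 3 and 5, whereas over all genes the median size of that difference was 0.82. Leaving out naïve replicate 1 gave a log2 fold change of 3.44 (limma, adjusted p = 2.68e-05). Leaving out any one of the other 5 arrays ended the call, with adjusted p-values from limma between 0.0747 and 0.0991 and log2 fold changes between 2.23 and 2.77.

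The other Cdkn1a probe set gave signals of 7420, 4274 and 12808 on the iLarge T arrays, against 7583, 33.3 and 51.8 on the naïve arrays. The signals on naïve replicates 3 and 5 are under the 40th percentile of their arrays, which ran from 182.5 to 299.6 and is used here as the limit of near background, and naïve replicate 1 lay within the iLarge T range. The fitted log2 fold change of 4.97 (SE 1.66, limma, adjusted p = 0.140) did not pass the test and was 3.50 with low signals raised to that limit. Both probe sets thus placed naïve replicate 1 well above the other naïve arrays, by 2.33 and by 7.51 log2 units.

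The 250 bases before the outermost Cdkn1a start are shown because p53 is the best known regulator of this gene. Capitals mark matches to the p53 half-site consensus, searched on both strands (chr17:29090729-29090978, plus strand, GRCm38.p6, from RefSeq).
Cdkn1a: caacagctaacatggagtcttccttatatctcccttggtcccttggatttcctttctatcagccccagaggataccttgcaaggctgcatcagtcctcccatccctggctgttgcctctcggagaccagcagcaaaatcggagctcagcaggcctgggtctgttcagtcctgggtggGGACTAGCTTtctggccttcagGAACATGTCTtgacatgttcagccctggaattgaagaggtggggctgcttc
The 2 matches begin 73 and 51 bases before this outermost start and do not overlap. A match was held by 7.13% of the 32851 RefSeq windows of this length, and 0.259% held 2 or more. A second Cdkn1a start lies 2790 bases further on and its window holds no half-site match, so that the matches are near the outer start only. Which start these cells use was not tested. RefSeq windows were found for 6 of the 7 genes, 9 windows in all, and Cdkn1c had no entry.

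Cdkn1b encodes p27, which holds cells in quiescence and is removed by ubiquitination as they enter the cycle. It lies on chr6:134920401-134925525 (GRCm38.p6) and also has 2 probe sets. The signal of the brighter one was 3979, 2628 and 2659 on the iLarge T arrays, against 11306, 25239 and 29398 on the naïve arrays. All iLarge T arrays were below the lowest naïve array, which was replicate 1, at 1.27 log2 units below the mean of the other naïve arrays. The means were 3088 ± 771 in iLarge T BMSC and 21981 ± 9476 in naïve BMSC (SD, n = 3 each). The log2 fold change was −2.75 (SE 0.37, 95% interval −3.58 to −1.91, limma, adjusted p = 0.00369), which is 6.71-fold lower with an interval of 3.76 to 12.0. It remained called with each array left out, at log2 fold changes between −3.17 and −2.48.

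The other Cdkn1b probe set was much dimmer, with 571, 255 and 55.6 on the iLarge T arrays, against 937, 1564 and 411 on the naïve arrays. The groups overlapped and 2 iLarge T arrays were near background. Its log2 fold change of −2.07 (SE 0.91, limma, adjusted p = 0.274) had the same sign as that of the main probe set and did not pass the test.

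The Cdkn1b window is shown for its CCAAT boxes (CCAAT on either strand), which are in capitals (chr6:134920151-134920400, plus strand, GRCm38.p6, from RefSeq).
Cdkn1b: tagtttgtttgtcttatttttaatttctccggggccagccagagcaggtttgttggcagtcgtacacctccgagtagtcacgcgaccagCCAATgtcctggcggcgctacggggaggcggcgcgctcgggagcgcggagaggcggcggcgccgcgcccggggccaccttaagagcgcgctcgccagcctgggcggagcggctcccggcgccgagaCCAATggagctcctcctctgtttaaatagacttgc
They begin 161 and 35 bases before the start. At least 1 CCAAT was held by 33.8% of all windows and at least 2 by 10.1%, so that these letters are common.

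Cdkn1c encodes p57, an inhibitor expressed from the maternal allele of an imprinted cluster on chr7 (gene at chr7:143458339-143461059, GRCm38.p6). Its signal was 744, 341 and 556 on the iLarge T arrays, against 467, 326 and 257 on the naïve arrays. These signals lie between percentiles 46.0 and 60.3 of their arrays, and the groups overlapped. The log2 fold change was 0.62 (SE 0.60, 95% interval −0.73 to 1.97, limma, adjusted p = 0.683). The interval leaves room for a change of either sign.

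**Figure D2:**
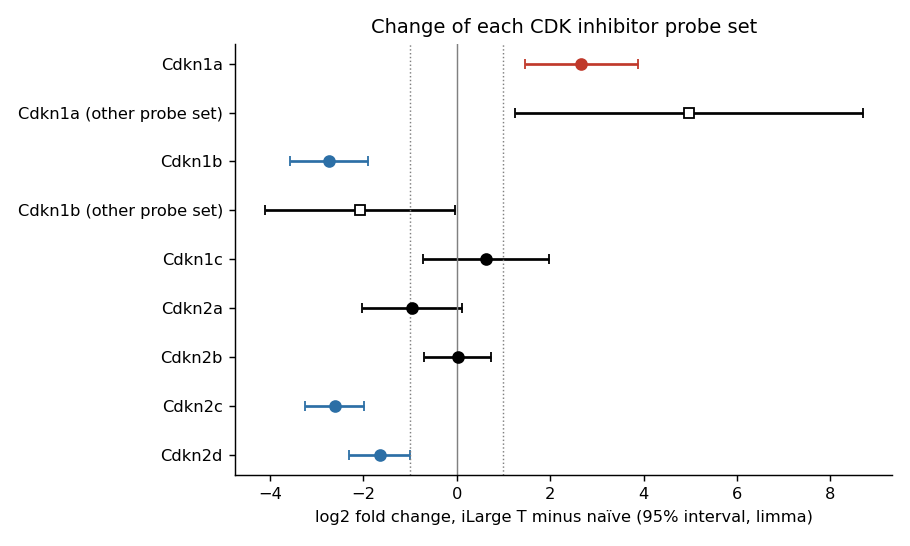
Log2 fold change (iLarge T minus naïve) with its 95% interval from limma for each of the 9 probe sets, with the main probe set of a gene filled and the other probe set open, and dotted lines at a 2-fold change. Red and blue mark called probe sets, higher and lower, and the 2 second probe sets have the sign of the main ones with much wider intervals.

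Cdkn2a and Cdkn2b lie next to each other on chr4, with 11669 bases between them in GRCm38.p6. Cdkn2a (chr4:89274473-89294619) encodes the INK4 protein p16 and, in another reading frame, p19ARF, which protects p53, and its single probe set is not assumed here to tell the 2 products apart. Its signal was 10733, 5862 and 2502 on the iLarge T arrays, against 7271, 12029 and 13144 on the naïve arrays. The groups overlapped, since iLarge T replicate 2 lay among the naïve arrays. The log2 fold change was −0.96 (SE 0.48, 95% interval −2.03 to 0.12, limma, adjusted p = 0.348). It lay between −1.45 and −0.40 with each array left out, and was −0.40 without iLarge T replicate 6, the array with the lowest signal.

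Cdkn2b (chr4:89306289-89311032) encodes p15, an inhibitor induced by TGF-beta. Its signal was 17272, 12799 and 8083 on the iLarge T arrays, against 9010, 12874 and 14910 on the naïve arrays. The groups covered nearly the same range, with means of 12718 ± 4595 in iLarge T BMSC and 12265 ± 2997 in naïve BMSC (SD, n = 3 each). The log2 fold change was 0.02 (SE 0.33, 95% interval −0.71 to 0.74, limma, adjusted p = 0.989), an interval of 0.611-fold to 1.67-fold. The sign turned with quantile normalization and without iLarge T replicate 2, iLarge T replicate 4 or naïve replicate 1. Signals of Cdkn2a and Cdkn2b were at or above percentile 75.4 on every array, so that the transcripts of this locus were well detected in both groups.

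The first Cdkn2a window, that of the outermost start, is shown because it was the only one of the 9 member windows with one of the E2F letters searched (TTTCCCGC, TTTGGCGC, TTTCGCGC and TTTGCCGC, on both strands), in capitals (chr4:89294620-89294869, minus strand, GRCm38.p6, from RefSeq).
Cdkn2a: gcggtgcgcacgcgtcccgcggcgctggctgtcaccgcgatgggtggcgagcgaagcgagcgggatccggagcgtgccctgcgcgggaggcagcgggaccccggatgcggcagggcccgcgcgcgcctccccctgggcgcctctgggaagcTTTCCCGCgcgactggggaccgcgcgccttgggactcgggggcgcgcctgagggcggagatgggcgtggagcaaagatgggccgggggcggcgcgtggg
The match begins 99 bases before the outermost start, and 1.86% of all windows hold one. The window of the inner Cdkn2a start holds no such match, and the windows were not assigned to p16 or p19ARF.

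Cdkn2c encodes p18, an INK4 protein that many dividing cells make. It lies on chr4:109660876-109666756 (GRCm38.p6), 20349843 bases from Cdkn2b. Its signal was 2275, 3840 and 2764 on the iLarge T arrays, against 14094, 20263 and 19378 on the naïve arrays. Every iLarge T array was below every naïve array, and naïve replicate 1 was 0.49 log2 units below the mean of the other naïve arrays. The means were 2960 ± 801 in iLarge T BMSC and 17911 ± 3336 in naïve BMSC (SD, n = 3 each). The log2 fold change was −2.61 (SE 0.28, 95% interval −3.25 to −1.98, limma, adjusted p = 0.00129), or 6.12-fold lower with an interval of 3.94 to 9.51. It was called with each of the 6 arrays left out, at log2 fold changes between −2.82 and −2.44.

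Cdkn2d encodes p19INK4d, a further INK4 protein, and lies on chr9:21288459-21291421 (GRCm38.p6). Its signal was 2050, 2704 and 3803 on the iLarge T arrays, against 9987, 7864 and 8324 on the naïve arrays. Here too the groups did not overlap, and naïve replicate 1 was the highest array, 0.30 log2 units above the mean of the other naïve arrays. The means were 2852 ± 886 in iLarge T BMSC and 8725 ± 1117 in naïve BMSC (SD, n = 3 each). The log2 fold change was −1.65 (SE 0.30, 95% interval −2.31 to −0.99, limma, adjusted p = 0.0124), or 3.14-fold lower with an interval of 1.99 to 4.96. The call was lost without iLarge T replicate 4 (limma, adjusted p = 0.0608) and without naïve replicate 3 (limma, adjusted p = 0.0512), and remained without each of the other 4 arrays.

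The windows of these 2 INK4 genes are shown together because each holds 3 GC boxes (GGGCGG on either strand), in capitals (Cdkn2c, chr4:109666757-109667006; Cdkn2d, chr9:21291210-21291459; both minus strand, GRCm38.p6, from RefSeq).
Cdkn2c: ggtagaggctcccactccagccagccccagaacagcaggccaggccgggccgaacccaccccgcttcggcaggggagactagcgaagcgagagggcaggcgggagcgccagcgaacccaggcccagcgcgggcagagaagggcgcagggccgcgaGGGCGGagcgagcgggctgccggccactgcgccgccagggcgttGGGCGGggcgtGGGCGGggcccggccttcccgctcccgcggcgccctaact
Cdkn2d: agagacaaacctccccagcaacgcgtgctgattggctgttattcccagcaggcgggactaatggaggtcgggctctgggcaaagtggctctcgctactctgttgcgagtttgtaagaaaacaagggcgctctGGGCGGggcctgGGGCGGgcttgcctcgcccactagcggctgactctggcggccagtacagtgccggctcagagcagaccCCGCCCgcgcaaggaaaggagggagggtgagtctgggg
They begin 95, 51 and 40 bases before the Cdkn2c start and 118, 106 and 38 bases before the Cdkn2d start. A GC box was held by 32.7% of all windows and 3 or more by 8.47%. The Cdkn2d window also holds a p53 half-site match 102 bases before the start, which overlaps the second GC box, and the second Cdkn2c window holds none of the motifs. The TATA letters TATAAA, which 12.4% of all windows hold, were in none of the member windows.

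**Figure D3:**
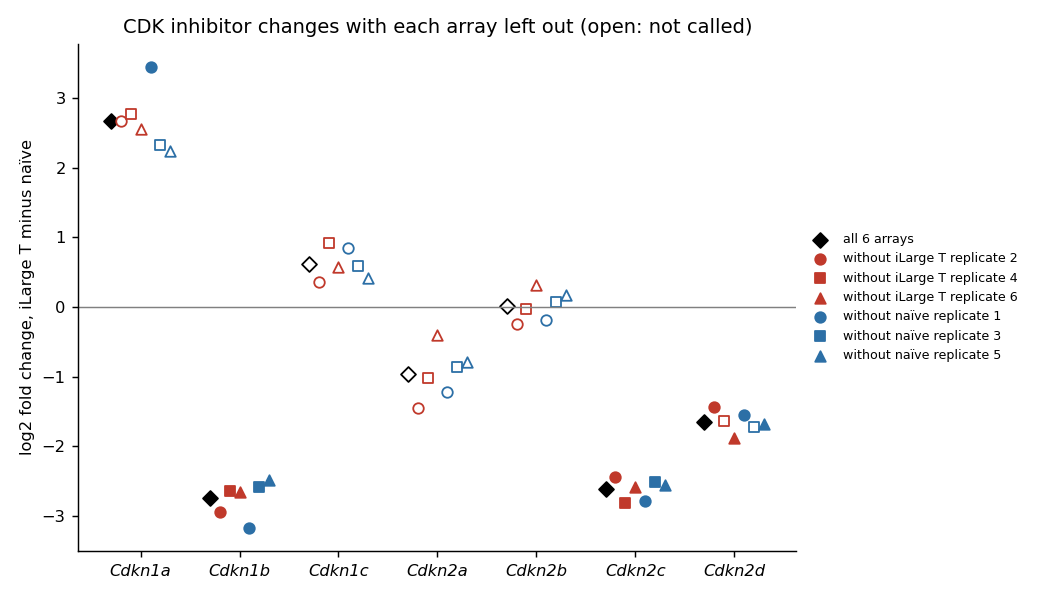
Log2 fold change (iLarge T minus naïve) of each CDK inhibitor with all 6 arrays (diamond) and with each array left out (iLarge T arrays in red, naïve arrays in blue), filled where the gene was called and open where it was not. Cdkn1b and Cdkn2c are filled throughout, Cdkn2d is open in 2 of its 6 settings, and Cdkn1a is filled among these 6 only without naïve replicate 1.

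The arrays themselves differed within a group, which bears on Cdkn1a above all. Over all probe sets the iLarge T arrays correlated at 0.845 to 0.863, naïve replicates 3 and 5 at 0.892 and naïve replicate 1 with these at 0.829 and 0.831, while pairs across the groups gave 0.789 to 0.824. For 5 of the 7 inhibitors naïve replicate 1 lay outside the range of the other naïve arrays on the side of the iLarge T arrays, beside 48.0% of all genes. Markers of stromal cells were well detected, with 11 of 12 measured above the array's median on all 6 arrays and summed signals of 525911 to 735141 on the iLarge T arrays, against 268183 to 549861 on the naïve arrays. Markers of mesothelial cells, the lining of body cavities, had summed signals of 2742 to 4117 on the iLarge T arrays, against 30390 on naïve replicate 1 and 153131 and 152022 on naïve replicates 3 and 5, with 4 of 5 genes called lower in iLarge T BMSC. Leukocyte and macrophage markers summed to 53188 on iLarge T replicate 6, to 6661 and 6117 on iLarge T replicates 2 and 4, and to 3678 to 11612 on the naïve arrays, and 8 of the 9 were highest on that array. The sums on naïve replicates 3 and 5 were mostly Cd68 (9873 and 8396). Of the 9, Csf1r was called higher. It encodes the receptor for a macrophage growth factor and had 3716, 1892 and 5673 on the iLarge T arrays, against 883, 330 and 339 on the naïve arrays (limma, adjusted p = 0.0151). Ptprc, which encodes CD45 and defines leukocytes, reached 4440 on iLarge T replicate 6 and was near background on the other 5 arrays. Endothelial markers summed to 35400 on iLarge T replicate 6, to 3828 and 4907 on iLarge T replicates 2 and 4, and to 6760 to 9789 on the naïve arrays. The naïve sums were mostly Tek, which was called lower in iLarge T BMSC (502, 458 and 1300 on the iLarge T arrays, against 5703, 8480 and 9080 on the naïve arrays). Cdh5, which encodes the endothelial cadherin, was called higher, with 2211, 2787 and 23797 on the iLarge T arrays, against 210, 32.0 and 27.5 on the naïve arrays (limma, adjusted p = 0.00760). Astrocyte markers summed to 1208 to 5311 on the iLarge T arrays and 796 to 989 on the naïve arrays, with no gene called. The highest sum was mostly Gfap (3104 on iLarge T replicate 6). Neuronal markers summed to 3378 to 6380 on the iLarge T arrays and 1455 to 3859 on the naïve arrays. Only Tubb3 was called, as higher, with 4230, 1328 and 5150 on the iLarge T arrays, against 892, 355 and 90.9 on the naïve arrays (limma, adjusted p = 0.0490). Map2 had a log2 fold change of −1.52 and was not called (limma, adjusted p = 0.284). These signals do not show which cells made the transcripts. The paper reports staining for Large T antigen in every cell recovered from the brain by this method. It saw no growth in the same culture from mice given wild-type BMSC or saline. Before injection, few of its BMSC carried CD11b or CD45 by flow cytometry. Whether the Large T cells themselves or other cells expressed these markers was not tested. Any part of other cells in the inhibitor values was not tested either. In bulk RNA, fewer cells of a type and less RNA per cell cannot be told apart. Without both iLarge T replicate 6 and naïve replicate 1, an alternative chosen after seeing the data, 1 inhibitor was called higher and 3 lower, as with all arrays. Without iLarge T replicate 6 alone, Cdkn1b, Cdkn2c and Cdkn2d remained called and Cdkn1a did not. Leaving out naïve replicate 1 alone raised Cdkn1a to 3.44 (limma, adjusted p = 2.68e-05). The joint setting therefore cannot show how the Cdkn1a call depends on iLarge T replicate 6.

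Of the kinases and cyclins that the inhibitors act on, the D-type cyclin Ccnd1 was called higher and 5 genes of the cyclin E, A and B complexes were called lower. Among Cdk4, Cdk6 and the 3 D-type cyclins that pair with them, 1 gene was called higher, none lower, and the median log2 fold change was 1.27. Ccnd1, the D-type cyclin that responds to growth factors, had signals of 76312, 60712 and 39915 on the iLarge T arrays, against 16835, 3201 and 3900 on the naïve arrays. It was higher by a log2 fold change of 3.26 (SE 0.55, limma, adjusted p = 0.00998), and all 3 of its probe sets were called. The call was lost without iLarge T replicate 2 or 4. The list had 3 genes called higher and 1 lower when naïve replicate 1 was left out, and 0 higher when iLarge T replicate 4 was. Ccnd2, named after its values were seen, had 104105, 68912 and 87617 on the iLarge T arrays, against 92139, 3201 and 4648 on the naïve arrays, so that naïve replicate 1 was within the iLarge T range as for the second Cdkn1a probe set. Its log2 fold change of 2.95 did not pass the test (limma, adjusted p = 0.149), and was 4.47 without naïve replicate 1 (limma, adjusted p = 1.67e-05). Cdk4 and Cdk6, the kinases that INK4 proteins bind, had log2 fold changes of −0.90 and 0.64 (limma, adjusted p = 0.124 and 0.486).

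Of the 6 measured kinases and cyclins that CIP/KIP proteins restrain, 5 were called lower and 1 was not called, with a median log2 fold change of −2.04. Cdk2, the kinase of the G1 to S step, had 1845, 2580 and 2235 on the iLarge T arrays, against 7780, 9329 and 9117 on the naïve arrays (log2 fold change −1.99, limma, adjusted p = 0.00321). Ccnb2, a mitotic cyclin, had 933, 2438 and 1616 on the iLarge T arrays, against 18523, 18636 and 15986 on the naïve arrays, the largest change of the list (log2 fold change −3.52, limma, adjusted p = 0.000969). Both genes separated the groups on every array, and they were called with each array left out. Of the 2 Cdk2 probe sets 1 was called, and the other had −1.26. Cdk1, Ccna2 and Ccne2 were lower by log2 fold changes between −2.38 and −1.86, while Ccne1 had 0.36 (limma, adjusted p = 0.776). The count of this list fell to 2 when iLarge T replicate 6 was left out and to 3 when replicate 2 was, and it was 1 under limma without an intensity trend.

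Proliferation markers, a list of 17 genes of DNA replication and mitosis, were called lower for 14 and higher for none, with a median log2 fold change of −2.82. Mki67, which marks cycling cells, had 1133, 2310 and 867 on the iLarge T arrays, against 17732, 8239 and 7843 on the naïve arrays (log2 fold change −2.99, limma, adjusted p = 0.00527). Mcm2, a subunit of the replicative helicase, had 889, 3351 and 1913 on the iLarge T arrays, against 16151, 34749 and 36167 on the naïve arrays (log2 fold change −3.93, limma, adjusted p = 0.00237). The called count was 11 to 14 with each array left out, and 3 under limma without an intensity trend. Cdkn2c and Cdkn2d were thus lower on the same arrays on which these genes were lower, as was Cdkn1b, whereas Cdkn1a was higher on them.

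**Figure D4:**
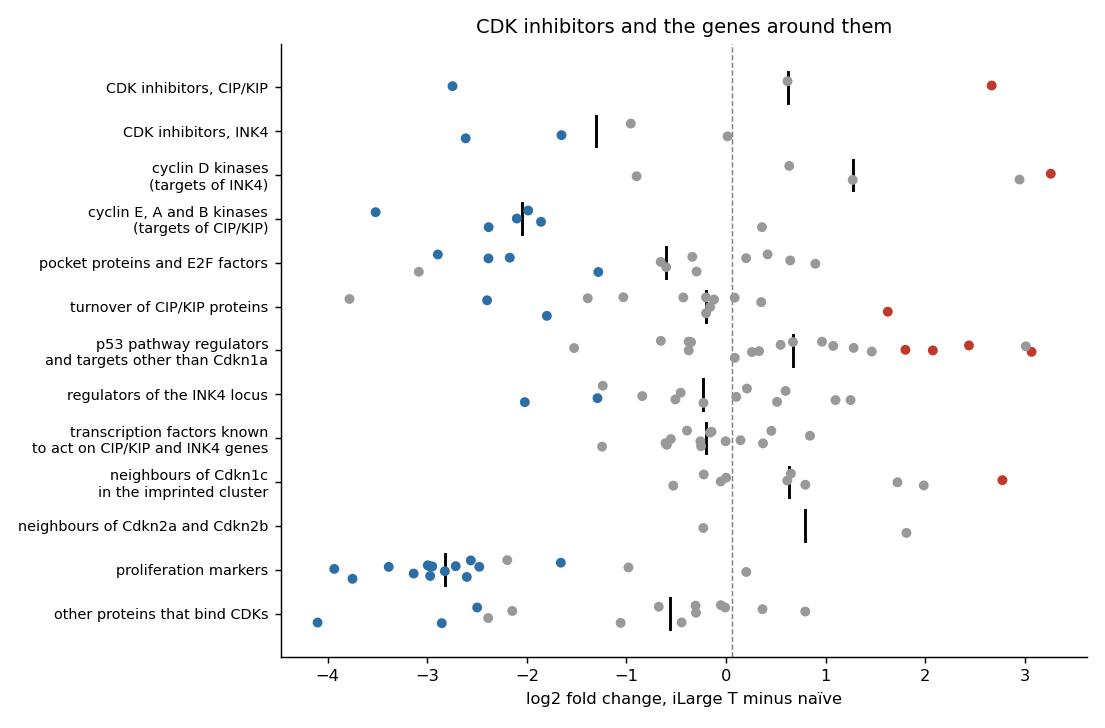
Log2 fold change (iLarge T minus naïve) of every measured gene in the inhibitor families and in the lists around them, with called genes in red (higher) and blue (lower), others in grey, the median of each list as a black bar and that of all genes as a dashed line. The proliferation markers and the cyclin E, A and B kinases lie mostly to the left, with medians of −2.82 and −2.04.

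Among 13 pocket proteins and E2F factors, which stand downstream of the kinases and are bound by large T antigen in the case of the pocket proteins, 4 were called lower and none higher, with a median of −0.60. The count fell to 2 when iLarge T replicate 6, naïve replicate 3 or naïve replicate 5 was left out, and to 0 under limma without an intensity trend. Rb1, the retinoblastoma gene, had a log2 fold change of −0.34 (limma, adjusted p = 0.575) and E2f1 one of −0.66 (limma, adjusted p = 0.508), both named after their values were seen. Tfdp1, a dimer partner of the E2F factors, had 11094, 12073 and 11075 on the iLarge T arrays, against 30356, 25318 and 27752 on the naïve arrays (log2 fold change −1.28, limma, adjusted p = 0.00968). Tfdp2 and E2f8 were lower by −2.17 and −2.38, and E2f8 was not called with any array left out. Of their probe sets, 2 of 4 for Tfdp2 and 1 of 2 for E2f8 were called. The pocket protein Rbl1 had a log2 fold change of −2.89 (limma, adjusted p = 0.00218), but only 1 of its 4 probe sets was called and these ran from −4.12 to 2.12.

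Of 13 genes for the turnover of CIP/KIP proteins, 2 were called lower and 1 higher, with a median of −0.20. Cdc20, an activator of the anaphase-promoting complex, which marks p21 for destruction, had 7776, 8765 and 4742 on the iLarge T arrays, against 56988, 27770 and 29946 on the naïve arrays (log2 fold change −2.40, limma, adjusted p = 0.00471). Of its 3 probe sets 2 were called, and they ran from −3.17 to −2.28. Cks2, a small subunit of CDK complexes, was lower by a log2 fold change of −1.80. Uhmk1, a kinase that phosphorylates p27, was higher by 1.62, though 1 of its 5 probe sets was called and they ran from −1.24 to 1.81. Skp2, which recognises p27 for ubiquitination, had a log2 fold change of −1.39 and was not called (limma, adjusted p = 0.149), and it is named after its values were seen. All 6 of its probe sets were lower, at log2 fold changes between −1.87 and −1.39, and 1 of them was called. No gene of this list was called under limma without an intensity trend.

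Among 19 measured genes of the p53 pathway other than Cdkn1a, 4 were called higher and none lower, with a median log2 fold change of 0.67. The 4 are known p53 targets, while other targets in the list had negative log2 fold changes. Pmaip1, which encodes the pro-apoptotic protein NOXA, had 27874, 24510 and 36200 on the iLarge T arrays, against 4620, 2426 and 3743 on the naïve arrays (log2 fold change 3.07, SE 0.30, limma, adjusted p = 0.000852), and it was called with each array left out. Zmat3 had 11884, 15619 and 14715 on the iLarge T arrays, against 5669, 1803 and 1676 on the naïve arrays (log2 fold change 2.44, limma, adjusted p = 0.0125), and naïve replicate 1 was again the highest naïve array. Phlda3 and Aen were higher by log2 fold changes of 2.08 and 1.80, and 1 of the 4 Aen probe sets was called. Naïve replicate 1 was above both other naïve arrays for 13 of the 19 genes, beside 43.6% of all genes. Mdm2, the ligase that removes p53, had 21787, 23250 and 17141 on the iLarge T arrays, against 21933, 5080 and 5424 on the naïve arrays, and is named after its values were seen. It was not called with all arrays (log2 fold change 1.28, limma, adjusted p = 0.206) and had a log2 fold change of 1.97 without naïve replicate 1 (limma, adjusted p = 0.000571). The 3 Mdm2 probe sets ran from −0.75 to 1.36. Targets with negative log2 fold changes, also named after their values were seen, included Sesn1 (−1.53), Sesn2 (−0.65), Gadd45a (−0.38) and Bbc3 (−0.37). None of these was called, with adjusted p-values from limma between 0.172 and 0.902. The 4 Sesn1 probe sets ran from −2.74 to −1.53. The count of this list depended on single arrays. It was 9 higher and 3 lower without naïve replicate 1, and the 3 lower were Sesn1, Sesn2 and Gadd45a. It was 1 higher without iLarge T replicate 4, iLarge T replicate 6 or naïve replicate 3, and 2 without naïve replicate 5. Under limma without an intensity trend it was 1 higher.

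**Figure D5:**
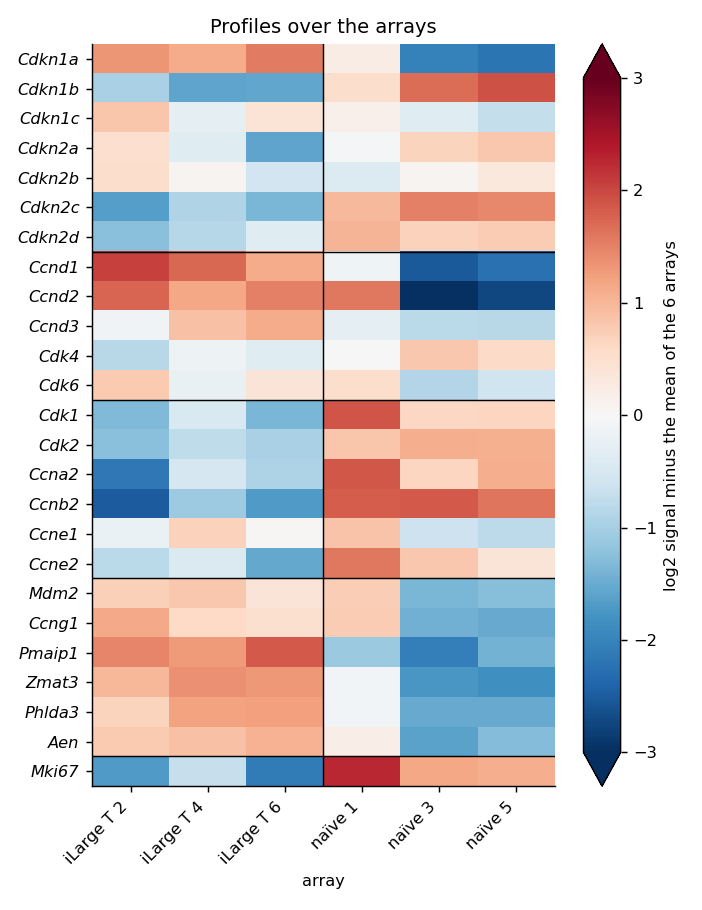
Log2 signal minus the mean of the 6 arrays for the CDK inhibitors, the D-type cyclins with Cdk4 and Cdk6, the other cyclins and kinases, 6 p53 targets and Mki67, with the iLarge T arrays left and the naïve arrays right (colours end at −3 and 3). Mdm2 and Ccng1 were added after their values were seen, and naïve replicate 1 has the colour of the iLarge T arrays for Ccnd2, Mdm2 and Ccng1. The p53 targets with negative log2 fold changes, such as Sesn1 and Gadd45a, are not drawn.

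Of 13 regulators of the INK4 locus, 2 were called lower and none higher, with a median of −0.23. Both belong to the Polycomb repressive complex that methylates histone H3 and is known to silence Cdkn2a. Ezh2, its methyltransferase, had 3127, 3546 and 3050 on the iLarge T arrays, against 15182, 10718 and 13862 on the naïve arrays (log2 fold change −2.02, limma, adjusted p = 0.00239), and was called with each array left out. Suz12, another subunit, had 4008, 4460 and 3140 on the iLarge T arrays, against 9142, 9434 and 9521 on the naïve arrays (log2 fold change −1.29, limma, adjusted p = 0.0174), and was called in 2 of the 6 settings with an array left out. Of its 6 probe sets 3 were called. Eed, a further subunit named after its values were seen, overlapped between the groups and was not called (log2 fold change −0.45, limma, adjusted p = 0.539). The list had 1 gene called lower when iLarge T replicate 4 or 6 or naïve replicate 3 or 5 was left out, and 3 lower and 1 higher when naïve replicate 1 was. Cdkn2a and Cdkn2b overlapped between the groups on these same arrays. The genes next to this locus, Mtap and Dmrta1, were not called (log2 fold change of Mtap −0.23, limma, adjusted p = 0.734), and Dmrta1 was near background on all 6 arrays. Of 14 measured transcription factors known to act on the inhibitor genes, limma called 0, with 1 higher and 2 lower when naïve replicate 1 was left out.

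Around Cdkn1c, 1 of 10 measured neighbours in the imprinted cluster was called higher and none lower, beside 6.80% of all genes called in either direction. The median of these neighbours was 0.63, or 0.40 with low signals raised to the limit of near background. The called gene was Igf2, an imprinted growth factor expressed from the paternal allele, with 1855, 1916 and 4625 on the iLarge T arrays, against 406, 271 and 465 on the naïve arrays (log2 fold change 2.77, SE 0.49, limma, adjusted p = 0.0116). Its highest array was iLarge T replicate 6, without which it was not called (limma, adjusted p = 0.0610). The second Igf2 probe set had a log2 fold change of 0.23. Of 14 other proteins that bind CDKs, 3 were called lower and none higher, with a median of −0.56. They were the phosphatases Cdc25b and Cdc25c, which activate CDKs, and Pkmyt1, a kinase that holds Cdk1 inactive, with log2 fold changes of −2.50, −2.85 and −4.10. Of the 2 Pkmyt1 probe sets 1 was called, and the other had −0.62. None of the 3 genes was called without iLarge T replicate 2 or without naïve replicate 3. Of this list, 6 were called lower when naïve replicate 1 was left out and 1 when iLarge T replicate 6 was.

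The genes whose profile over the 6 arrays was most like that of a called inhibitor were found by the root mean square difference of centred log2 signals, among 11399 genes at or above the median signal. For Cdkn1a they were Cd302, Parm1 and Jag1, with differences of 0.156, 0.255 and 0.283 log2 units, each with naïve replicate 1 between the iLarge T and the other naïve arrays. For Cdkn1b they were Syne2, Shmt1 and Pold2 (0.231, 0.235 and 0.245). For Cdkn2c they were Ube2t, Msh6 and Mcm6 (0.135, 0.151 and 0.165), and Mcm6 had signals of 6256, 7575 and 5653 on the iLarge T arrays, against 31259, 41459 and 46288 on the naïve arrays. Of the 3 Mcm6 probe sets 2 were called lower, and the highest log2 fold change among them was 0.63. For Cdkn2d they were Nfib, Tdrp and Nsl1 (0.140, 0.157 and 0.173). With 6 arrays, these lists describe likeness in these samples and carry no test.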

How the data were processed

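The 6 Affymetrix Mouse Genome 430 2.0 arrays hold pooled RNA of 3 iLarge T and 3 naïve samples. The authors deposited MAS5 intensity signals on a linear scale (GeneChip Operating Software per the methods), each array scaled to a trimmed mean of 2500. MAS5 signals scatter most when dim, and no detection calls were used, so signals under the 40th percentile of an array were treated as near background. Log2 was taken, 64 control probe sets were left out, and limma 3.58.1 in R 4.3.3 (lmFit, eBayes with an intensity trend) compared the groups, with Benjamini-Hochberg adjustment over 45037 probe sets. The paper's test, an unpaired t-test with the same adjustment and at least 2-fold, is called the methods' t-test. A gene's value is that of its brightest probe set with 1 symbol; 34945 probe sets had 1 symbol, 932 several and 9160 none listed, and 34741 of the first were matched to RefSeq. Probe sets of near-identical genes were not examined. Promoter windows are RefSeq's, GRCm38.p6. Python 3.11.15 wrote the tables, with pandas 2.3.3, numpy 2.4.6 and scipy 1.17.1, and matplotlib 3.10.9 drew the figures. The test was tried on simulated data with known changes, drawn independently for each probe set and array. That trial holds no outlying array and cannot show how the test fares with one.

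The members, lists and alternatives were chosen with earlier results of these data known. Named are all members, up to 5 called genes of a list in each direction, and for each called member the 3 genes most like it. Alternatives were other tests, limma without the trend, quantile normalization, a filter, a floor and a pseudocount of 16 for low signals, other probe sets of a gene, other thresholds and each array left out. The labels name no shared batch of arrays. Precision is limited by 3 arrays a group.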

Additional observations from a re-analysis of the deposited data

How the results depend on the processing

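With each array left out, log2 fold changes ran from 2.23 to 3.44 for Cdkn1a, −3.17 to −2.48 for Cdkn1b, 0.36 to 0.92 for Cdkn1c, −1.45 to −0.40 for Cdkn2a, −0.24 to 0.31 for Cdkn2b, −2.82 to −2.44 for Cdkn2c and −1.88 to −1.44 for Cdkn2d. Cdkn2b changed sign with quantile normalization (−0.011) and without iLarge T replicate 2 (−0.24), iLarge T replicate 4 (−0.02) or naïve replicate 1 (−0.19); no other inhibitor did in any alternative. Leaving out an array gave 0 to 1 inhibitors called higher and 2 to 3 lower, 422 to 2342 probe sets higher and 367 to 2140 lower (1113 and 1024 with all arrays), 250 to 1298 genes higher and 232 to 1214 lower (644 and 593), and 3 to 16 genes of the lists higher and 19 to 39 lower (7 and 30). The most came without naïve replicate 1.

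Calls of the 4 inhibitors were lost under 3 tests. Limma without an intensity trend called 0 genes of the cyclin D, turnover, INK4 locus, imprinted and other CDK-binding lists, and gave Cdkn1a 2.67, Cdkn1b −2.75, Cdkn2c −2.61 and Cdkn2d −1.65 (limma, adjusted p = 0.174, 0.0842, 0.0607 and 0.133), with 0 inhibitors called either way, 186 probe sets higher and 109 lower, 85 genes higher and 48 lower, and 1 list gene higher and 4 lower. The methods' t-test on log2 values, with the same fold changes, called 0 inhibitors, 15 probe sets higher and 13 lower, 7 genes in each direction and 0 list genes. On linear signals it gave Cdkn1a 2.23, Cdkn1b −2.83, Cdkn2c −2.60 and Cdkn2d −1.61, with 0 inhibitors called, 33 probe sets higher and 67 lower, 17 genes higher and 36 lower, and 0 list genes higher and 2 lower. In each of the 3, 4 inhibitors had an unadjusted p under 0.05.

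Low signals raised to the 40th percentile gave 1677 probe sets, 971 genes and 12 list genes higher, and moved the median of all probe sets to 0.17 from 0.01. Without naïve replicate 1 and iLarge T replicate 6 together (added after seeing the data) 2189 probe sets were higher and 2375 lower, 1211 genes higher and 1321 lower, and 16 list genes higher. An adjusted p under 0.1 gave 1731 probe sets higher and 1554 lower. The mean of a gene's probe sets gave Cdkn1a 3.82, with 0 inhibitors called higher (limma, adjusted p = 0.0988). The most variable probe set, which for these 2 genes is the other one, gave Cdkn1a 4.97 and Cdkn1b −2.07, neither called, with 0 inhibitors and 4 list genes higher. The cause of these differences was not tested. No paired analysis was run, because no label ties an iLarge T array to a naïve array. Any pairing by experiment was therefore not taken into account.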
